A study of Arabidopsis thaliana with 6 samples.

Results

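The genes described here are the 63 entries that the deposited gene count tables place on the mitochondrial genome of Arabidopsis, out of 32744 entries in all; they were taken by their chromosome label alone. By name and position in the RefSeq annotation they comprise 38 protein-coding entries, 22 transfer RNA (tRNA) entries and 3 ribosomal RNA (rRNA) entries. The protein-coding entries stand for 32 genes, because nad1, nad2 and nad5 are listed in separate pieces and atp6 has a pair of copies. They fall into 14 entries for complex I, 1 for complex III, 3 for complex IV, 6 for ATP synthase, 5 for cytochrome c maturation, 7 for ribosomal proteins and 2 others. Reads were counted per gene in 6 libraries of total RNA from whole seedlings at Boyes growth stage 1.04, depleted of ribosomal RNA and sequenced with strand information. There were 3 libraries of wild type and 3 labelled as a knockout double mutant of AT4G15640 and AT3G21465, titled mtran1-2-2-1, both grown on media with no treatment; the labels give no ecotype. The series describes the mutated genes as coding for uncharacterised mitochondrial proteins. The labels do not say that libraries came from separate plants, so p-values measure the spread between libraries, which may be technical. Positions are those of the deposited tables on the mitochondrial genome.

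Plant mitochondria keep a small genome of their own, which codes for some subunits of the respiratory chain and of ATP synthase, for the machinery that attaches haem to c-type cytochromes, for part of the mitochondrial ribosome and for a set of tRNAs. Its transcripts are made by phage-type RNA polymerases coded in the nucleus, often from several start sites and as longer precursors. They are then cut, spliced, edited from C to U at many positions and degraded by enzymes that are also nuclear-coded. Several tRNA genes of flowering plant mitochondria descend from plastid DNA.

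Library totals ranged from 53193772 to 78671470 counts. The targeted genes check the labels: AT3G21465 was lower in the labelled mutant libraries, with a log2 fold change of -0.78 ± 0.083 (SE, with an edgeR adjusted p of 8.95e-05), but AT4G15640 was not, at 0.16 ± 0.08 (SE, with an edgeR adjusted p of 0.121). The second group is therefore called the labelled mutant libraries throughout, and each direction rests on that label. Of all tested genes, 5742 were higher and 5679 lower, and the groups did not overlap for 61.8%. Seedlings were sampled whole, so a difference in tissue make-up and a difference per cell cannot be told apart. Among 11 root marker genes 7 were lower and 3 were higher, and their summed level ranged from 18.5 to 34.7 CPM (counts per 1000000, on totals scaled by TMM in edgeR) in wild type and from 13.8 to 14.4 CPM in the labelled mutant libraries. All 5 CASP genes, which mark the root endodermis, were among the lower ones. The higher ones were MYB36, an endodermis marker too, and PLT1 and WOX5, which mark the root tip. CASP5 was at 0 counts in labelled mutant replicates 2 and 3, and no other marker was at 0 in any library. The part of root make-up in the results below was not tested.

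Mitochondrial counts were 2.84, 3.08 and 2.94 per 100 plastid counts in wild type and 8.67, 10.5 and 9.55 in the labelled mutant libraries. The groups were far apart. Mitochondrial counts were higher, and the plastid share of all counts was lower, at 55.2 to 57.3% in wild type and 44.1 to 49.04% in the labelled mutant libraries. Of 62 mitochondrial entries with enough counts to test, 60 were higher in the labelled mutant libraries (edgeR quasi-likelihood test, Benjamini-Hochberg adjusted p under 0.05 over 21805 genes), where 26.3% of all tested genes were higher. None was lower, where 26.0% of all tested genes were lower. At an unadjusted p under 0.05 none was lower either, and DESeq2 also called 60 higher and 0 lower. The entries that did not pass were rrn18 and trnW(CCA), and rrn5 had too few counts to test. The libraries of the groups did not overlap for 61 of the 62, all but rrn18, where 61.8% of all tested genes did not overlap. All 38 protein-coding entries rose, with a median log2 fold change of 1.36, or 2.56-fold, against 0.01 over all tested genes. The rise ran from 1.72-fold to 3.87-fold among these entries, so the differences between them were followed gene by gene.

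**Figure D1:**
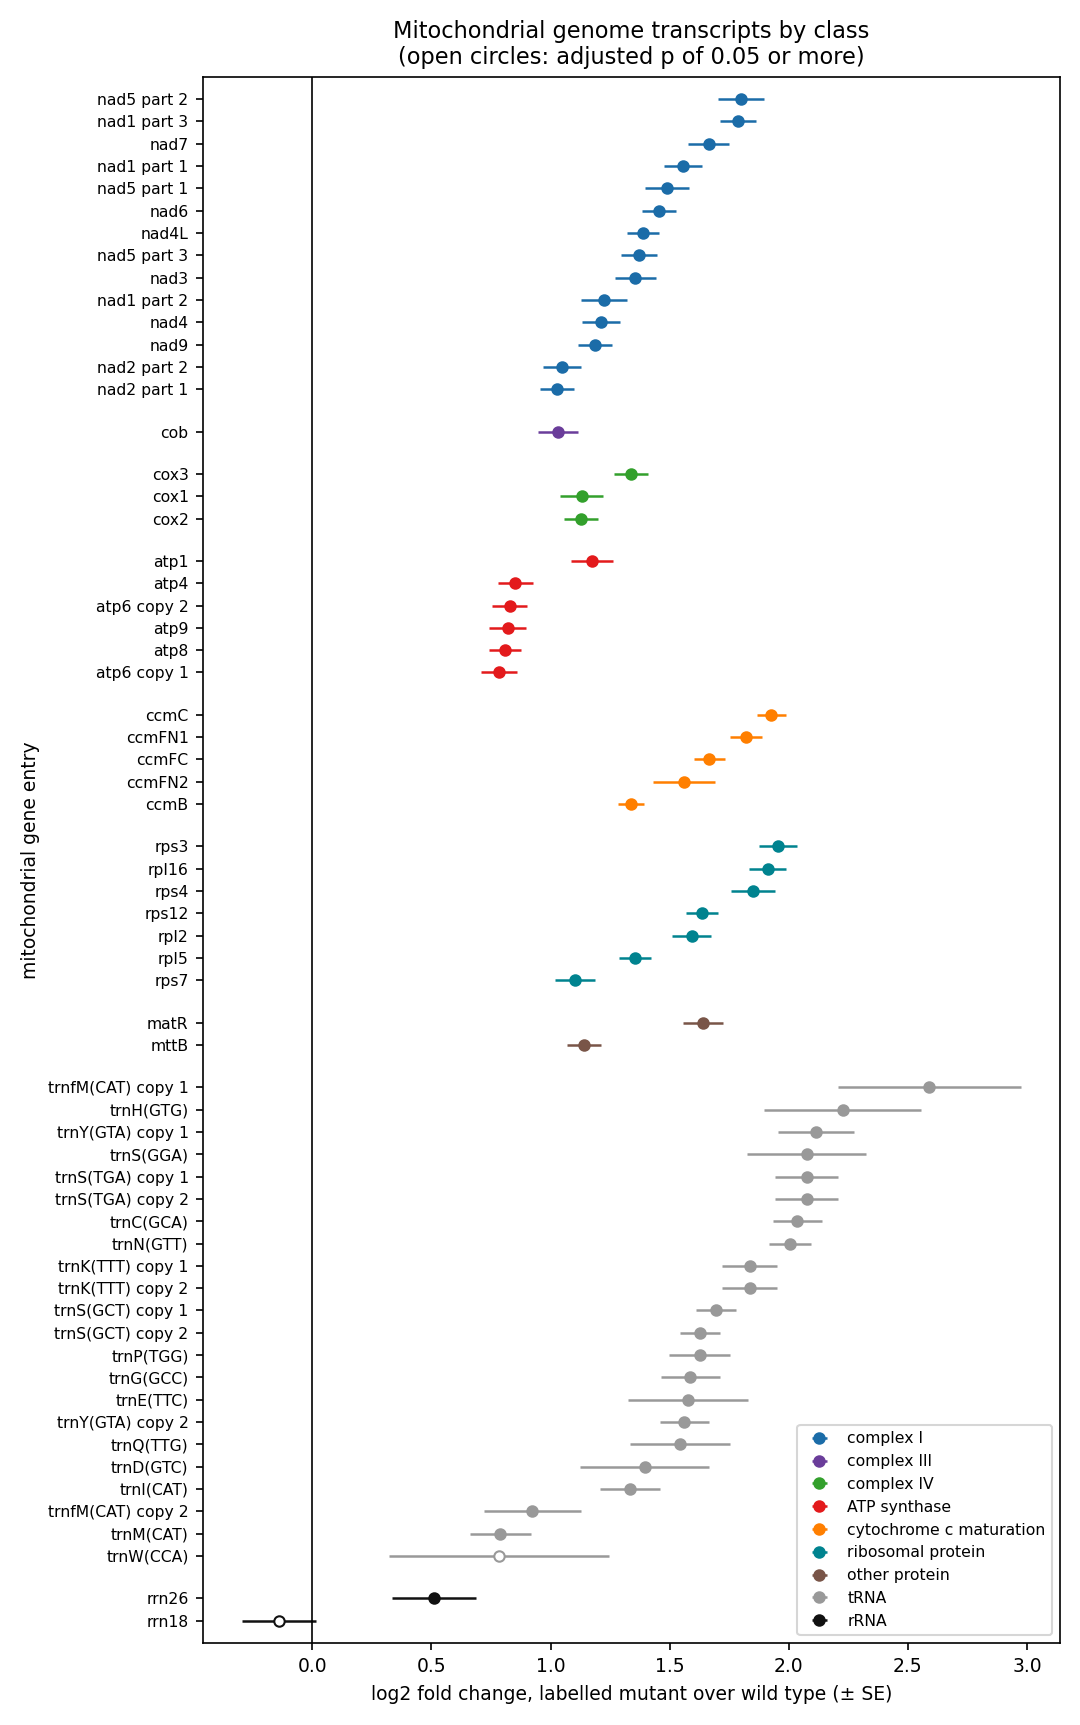
Log2 fold change of the 62 tested mitochondrial entries (x axis, labelled mutant over wild type, with the standard error), one row per entry and one colour per class; open circles are the 2 entries that did not pass. Within ATP synthase 5 of the 6 entries lie between 0.78 and 0.85, below all other protein-coding entries, and the rRNA entries lie lowest.

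To compare mitochondrial genes with each other, the whole table was fitted again with each library scaled to its mitochondrial protein-coding genes, so that a value of 0 means a change equal to the typical mitochondrial mRNA. These values are called relative log2 fold changes. Of the 62 tested entries 26 were higher and 16 lower on this scale, where 2.79% and 91.5% of all tested genes were higher and lower; the second percentage is high because nuclear and plastid genes fall on a scale set by mitochondrial ones. With most of the table called, the adjustment was close to none: the largest unadjusted p among the 42 calls was 0.047, and no entry passed a Bonferroni adjustment over all genes. By construction the protein-coding entries centre near 0. Of the 42 calls, 32 kept their direction and stayed under the threshold in each of the 11 other settings planned (21 higher and 11 lower). Unless stated otherwise, entries named below as relatively higher or lower are among these 32.

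ATP synthase genes had the lowest median rise of the protein-coding classes, 0.82 on the log2 scale, and 5 of the 6 entries were relatively lower. These code for subunits of the enzyme that makes ATP from the proton gradient; atp9 codes for the membrane ring and atp1 for the alpha subunit of the soluble head. The atp9 transcript (position 270961 to 271185, minus strand) had the highest level per length of all mitochondrial genes, at 4930.3, 4909.6 and 4554 CPM per kilobase in wild type and at 8392, 8756 and 8268 in the labelled mutant libraries. All labelled mutant libraries were above all wild-type ones, and the log2 fold change was 0.82 ± 0.077 (SE, with an edgeR adjusted p of 4.67e-05). Relative to the mitochondrial mRNAs as a whole it fell by 0.52 on the log2 scale. The smallest rise was that of atp6 copy 1 (position 49423 to 50580, plus strand), a proton channel subunit, at 778, 818 and 772 CPM per kilobase in wild type and at 1417, 1327 and 1331 in the labelled mutant libraries. Its groups were likewise separate, with a log2 fold change of 0.78 ± 0.075 (SE, with an edgeR adjusted p of 4.98e-05). The second atp6 copy shares 761 identical bases with the first, so the counts of both copies overlap, and its value was 0.83 ± 0.073. The peripheral stalk subunit gene atp4 (position 362206 to 362784, plus strand), which has no near-identical copy elsewhere, gave 0.85 ± 0.073, and atp8 (position 247016 to 247492, minus strand) gave 0.81 ± 0.067. In wild type only atp9 and atp1 of the protein-coding entries had a higher mean level per length than atp8. Its level was 962, 970.5 and 911 CPM per kilobase in wild type and 1668, 1666 and 1652 in the labelled mutant libraries. By contrast atp1 (position 67098 to 68621, minus strand), the second highest per length, had a larger rise. It stood at 1398, 1491 and 1409 CPM per kilobase in wild type and at 3103, 3379 and 3216 in the labelled mutant libraries, a log2 fold change of 1.17 ± 0.087 (SE, with an edgeR adjusted p of 1.30e-05). Its relative value of -0.17 ± 0.076 did not pass (edgeR adjusted p = 0.0618; DESeq2 adjusted p = 0.0146). The atp9 coding sequence is shown because this gene holds the largest share of mitochondrial mRNA and is short. The capitals are the 5 cytidines annotated as C-to-U editing sites in RefSeq (TAIR10.1), from which all sequences here were read.

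atp9: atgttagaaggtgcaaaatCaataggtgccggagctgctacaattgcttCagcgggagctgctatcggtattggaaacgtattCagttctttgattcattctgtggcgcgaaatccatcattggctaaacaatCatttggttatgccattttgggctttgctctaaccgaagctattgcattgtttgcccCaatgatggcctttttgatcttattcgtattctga

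Genes for cytochrome c maturation were at the other end. These genes (ccmB, ccmC, ccmFC, ccmFN1 and ccmFN2) code for parts of the machinery that attaches haem to c-type cytochromes. All 5 rose, with a median of 1.67 on the log2 scale, and 3 of the 5 were relatively higher. The largest rise was that of ccmC (position 308298 to 309068, plus strand), at 78.5, 82.8 and 83.8 CPM per kilobase in wild type and at 302, 314 and 316 in the labelled mutant libraries. The labelled mutant values were more than 3 times the wild-type ones in every library, with a log2 fold change of 1.93 ± 0.063 (SE, with an edgeR adjusted p of 3.44e-07) and a relative value of 0.59 ± 0.061. Its first 300 coding bases are shown as the counterpart of atp9: with 34 annotated editing sites over 771 bases the transcript is annotated as more densely edited, and the 7 sites in this stretch are in capitals.

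ccmC: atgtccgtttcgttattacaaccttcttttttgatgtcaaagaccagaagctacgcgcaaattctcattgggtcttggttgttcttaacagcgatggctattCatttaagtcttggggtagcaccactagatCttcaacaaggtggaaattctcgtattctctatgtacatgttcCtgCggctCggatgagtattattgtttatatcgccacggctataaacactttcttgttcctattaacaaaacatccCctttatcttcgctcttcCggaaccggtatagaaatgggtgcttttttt

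The ccmFN1 gene (position 316013 to 317161, plus strand) had the lowest mean level per length of the protein-coding entries in wild type. It stood at 39.1, 42.9 and 42.4 CPM per kilobase in wild type and at 141, 152 and 146 in the labelled mutant libraries. Its log2 fold change was 1.82 ± 0.066 (SE, with an edgeR adjusted p of 4.92e-07), close to that of ccmC. The ccmFC entry gave 1.67 ± 0.065 and a relative value of 0.33 ± 0.061. At the lower end of the class, ccmB (position 17814 to 18434, minus strand), which has no near-identical copy, stood at 70.96, 71.6 and 68.5 CPM per kilobase in wild type and at 179.7, 178 and 177 in the labelled mutant libraries. Its rise of 1.34 ± 0.055 (SE, with an edgeR adjusted p of 8.26e-07) left its relative value close to 0. For ccmFN2 (1.56 ± 0.13), wild type replicate 3 was above the other wild-type libraries, and the relative value of 0.22 ± 0.12 passed only with the replicate block (adjusted p = 0.025), without wild type replicate 3 (0.38, adjusted p = 0.0047) and under both sum-based scalings, to summed mitochondrial protein-coding counts or to all mitochondrial counts without rRNA (adjusted p of 0.036). The largest values of the class were thus those of ccmC and ccmFN1, and the smallest was that of ccmB.

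Ribosomal protein genes rose by 1.10 to 1.95 on the log2 scale, with a median of 1.64, and 5 of the 7 were relatively higher. These genes code for proteins of the small (rps) and large (rpl) subunits of the mitochondrial ribosome. The largest rise of any protein-coding entry was that of rps3 (position 20165 to 23418, plus strand), at 199, 227 and 213 CPM per kilobase in wild type and at 817, 846 and 812 in the labelled mutant libraries. Every labelled mutant library exceeded every wild-type library, and the log2 fold change was 1.95 ± 0.08 (SE, with an edgeR adjusted p of 8.26e-07) with a relative value of 0.61 ± 0.068. Next to it, rpl16 (position 23285 to 23824, plus strand) gave 1.91 ± 0.078, and rps4 (position 159980 to 161068, plus strand) gave 1.85 ± 0.093. Values for rps12 and rpl2 were 1.64 ± 0.068 and 1.59 ± 0.081. The rise of rpl5 was 1.36 ± 0.067, with a relative value of 0.02 ± 0.06 that did not pass. The smallest was rps7 (position 79559 to 80005, plus strand), at 43.01, 51.9 and 49.4 CPM per kilobase in wild type and at 95.9, 110.1 and 105 in the labelled mutant libraries. Its groups did not overlap either, with a log2 fold change of 1.10 ± 0.084 (SE, with an edgeR adjusted p of 1.52e-05); its relative value of -0.23 ± 0.077 did not pass without wild type replicate 2 (-0.20, adjusted p = 0.050) or labelled mutant replicate 1 (-0.17, adjusted p = 0.060), nor under the sum-based scalings (both -0.13, adjusted p of 0.14 and 0.13). The last 134 bases of rps3 are also the first 134 bases of rpl16. They are shown because a read overlapping both genes was assigned to neither, which lowers both counts; the stop codon of rps3 is in capitals.

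rps3 and rpl16 overlap: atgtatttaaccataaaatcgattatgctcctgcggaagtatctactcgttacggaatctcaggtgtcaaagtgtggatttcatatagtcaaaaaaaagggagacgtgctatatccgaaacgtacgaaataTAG

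The 14 complex I entries rose by 1.03 to 1.80 on the log2 scale, with a median of 1.38, where all protein-coding entries ran from 0.78 to 1.95. Complex I is the NADH dehydrogenase of the respiratory chain. Relatively higher were nad7, nad1 part 3 and nad5 part 2, and relatively lower were both pieces of nad2. The nad7 transcript (position 239250 to 245330, minus strand, 5 exons) stood at 452, 499 and 533 CPM per kilobase in wild type and at 1597, 1563 and 1542 in the labelled mutant libraries. The groups were separate, and the log2 fold change was 1.66 ± 0.086 (SE, with an edgeR adjusted p of 2.18e-06) with a relative value of 0.32 ± 0.075. The smallest rise was that of nad2 part 1 (position 161832 to 163357, plus strand), at 292, 337 and 309.5 CPM per kilobase in wild type and at 646, 639.9 and 626 in the labelled mutant libraries. It rose by 1.03 ± 0.072 (SE, with an edgeR adjusted p of 9.95e-06), and nad2 part 2 by 1.05 ± 0.081. The largest value in the class belonged to nad5 part 2 (position 360107 to 360128, plus strand), a single exon of 22 bases with 296, 435 and 520 counts in wild type and 1805, 2094 and 1619 in the labelled mutant libraries; its log2 fold change was 1.80 ± 0.097 (SE, with an edgeR adjusted p of 2.60e-06). Reads over so short an exon extend into flanking sequence or neighbouring exons, so its level per length was not compared. Of the undivided genes, nad6 gave 1.46 ± 0.073, nad4L 1.39 ± 0.067, nad3 1.36 ± 0.085, nad4 1.21 ± 0.079 and nad9 1.19 ± 0.072. The relative values of nad6, nad4L, nad3 and nad4 were 0.11 ± 0.071, 0.05 ± 0.065, 0.01 ± 0.085 and -0.13 ± 0.068. None of these passed, though nad4 did with DESeq2 (adjusted p = 0.041) and nad6 under both sum-based scalings (adjusted p of 0.012 and 0.013). The relative call of nad9 (-0.15 ± 0.064) ended without any 1 of the 6 libraries (adjusted p of 0.060 to 0.13) and in the other settings except DESeq2; under the sum-based scalings the value was -0.049 and -0.051.

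Transcripts of nad1, nad2 and nad5 are made in pieces at separate places in the genome and joined by trans-splicing, so the pieces of 1 gene can be compared within a library. The pieces of nad2 had nearly equal counts per length: the log2 ratio of part 2 to part 1 was 0.00, 0.04 and 0.03 in wild type and 0.08, 0.02 and 0.04 in the labelled mutant libraries. The groups overlapped. The pieces of nad1 were unequal. Counts per length of part 3 over part 1 had a log2 ratio of 2.15, 2.04 and 2.05 in wild type and 2.43, 2.23 and 2.27 in the labelled mutant libraries. All libraries held over 4 times as much of the last piece, and the excess was larger in each labelled mutant library than in any wild-type library. For part 2 over part 1 the log2 ratio was 0.87, 0.96 and 0.95 in wild type and 0.70, 0.49 and 0.60 in the labelled mutant libraries, lower in every labelled mutant library. The log2 ratio of nad5 part 3 to part 1 was 1.27, 1.16 and 1.13 in wild type and 1.04, 1.08 and 1.09 in the labelled mutant libraries, also without overlap between the groups. An exact permutation test over 3 against 3 libraries cannot give a two-sided p below 0.1, and this holds for every single value compared here. Counts over exons do not tell joined from unjoined pieces.

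Of the remaining protein-coding genes, cob (position 181677 to 182858, minus strand), cytochrome b of complex III, stood at 544, 574 and 527 CPM per kilobase in wild type and at 1199.7, 1118 and 1045 in the labelled mutant libraries. It rose by 1.03 ± 0.082 (SE, with an edgeR adjusted p of 1.94e-05) and was relatively lower, at -0.31 ± 0.075. Among the 3 genes of complex IV, the cytochrome c oxidase, cox3 stood at 576, 612 and 574 CPM per kilobase in wild type and at 1488, 1508 and 1459 in the labelled mutant libraries. It had the largest rise of the class, 1.34 ± 0.071 (SE, with an edgeR adjusted p of 2.33e-06). For cox2 the level was 653, 689 and 642 CPM per kilobase in wild type and 1477, 1440.2 and 1417 in the labelled mutant libraries, and its rise of 1.13 ± 0.071 (SE, with an edgeR adjusted p of 5.74e-06) was the smallest. For cox1 the rise was 1.13 ± 0.09. All 3 genes rose without overlap between the groups; the relative values of cox2 (-0.21 ± 0.066) and cox1 (-0.21 ± 0.078) did not hold in all settings. Under the sum-based scalings they were -0.11 for cox2 (adjusted p of 0.13 and 0.12) and -0.10 for cox1 (adjusted p of 0.20 and 0.19), and neither passed. The call of cox2 also ended without wild type replicate 1 (adjusted p = 0.057). That of cox1 ended with the replicate block (adjusted p = 0.054) and without any 1 library other than wild type replicate 3 (adjusted p of 0.053 to 0.088). The maturase gene matR (position 231089 to 233059, plus strand), which lies inside an intron of nad1 and codes for a splicing factor, stood at 95.9, 109 and 104 CPM per kilobase in wild type and at 341, 323 and 298 in the labelled mutant libraries. Its log2 fold change was 1.64 ± 0.083 (SE, with an edgeR adjusted p of 1.96e-06), relatively higher at 0.30 ± 0.071. The protein transport gene mttB (position 218904 to 219746, minus strand) stood at 109, 124 and 121 CPM per kilobase in wild type and at 265, 263 and 252 in the labelled mutant libraries. It rose by 1.14 ± 0.07 (SE, with an edgeR adjusted p of 5.32e-06), the smaller of these values.

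Because the classes rose by different amounts, the make-up of mitochondrial mRNA differed between the genotypes. Counts were divided by exon length and expressed as a share of the sum over 37 protein-coding entries, without the 22-base entry. Entries rather than genes were summed, so nad1, nad2 and nad5 enter more than once, and bases shared by the atp6 copies enter with both. The shares add up to a whole, so a lower share of any class raises the rest. ATP synthase entries made up 47.7, 46.1 and 45.6% in wild type and 37.04, 38.1 and 37.7% in the labelled mutant libraries. This was 46.4% ± 1.11 against 37.6% ± 0.532 (SD, n = 3 each), lower in each labelled mutant library. The single gene atp9 held 25.3, 23.9 and 23.2% in wild type and 18.4, 19.2 and 18.7% in the labelled mutant libraries. Wild-type libraries held 30.6, 31.5 and 32.4% from complex I entries, against 37.5, 36.1 and 36.7% for labelled mutant ones, each of them higher. Of this class, nad1 part 3 had a mean share of 3.67% in the first group and 5.58% in the second. On the relative scale the complex I median was 0.039, with 4 entries higher and 3 lower, not all of them in every setting. Complex I entries are 14 of the 38 protein-coding entries that set this scale, so a small class median is partly built in. For ribosomal proteins the share was 6.24, 6.43 and 6.43% in wild type and 8.89, 9.45 and 9.20% in the labelled mutant libraries. Cytochrome c maturation entries held 1.93% ± 0.0745 against 2.72% ± 0.0877 (SD, n = 3 each), and both classes were higher without overlap. The share of complex IV was 9.86% ± 0.263 against 9.95% ± 0.0721 (SD, n = 3 each), with overlapping groups and an exact permutation p of 0.7. For the other classes the exact two-sided permutation p was 0.1, the smallest possible.

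**Figure D2:**
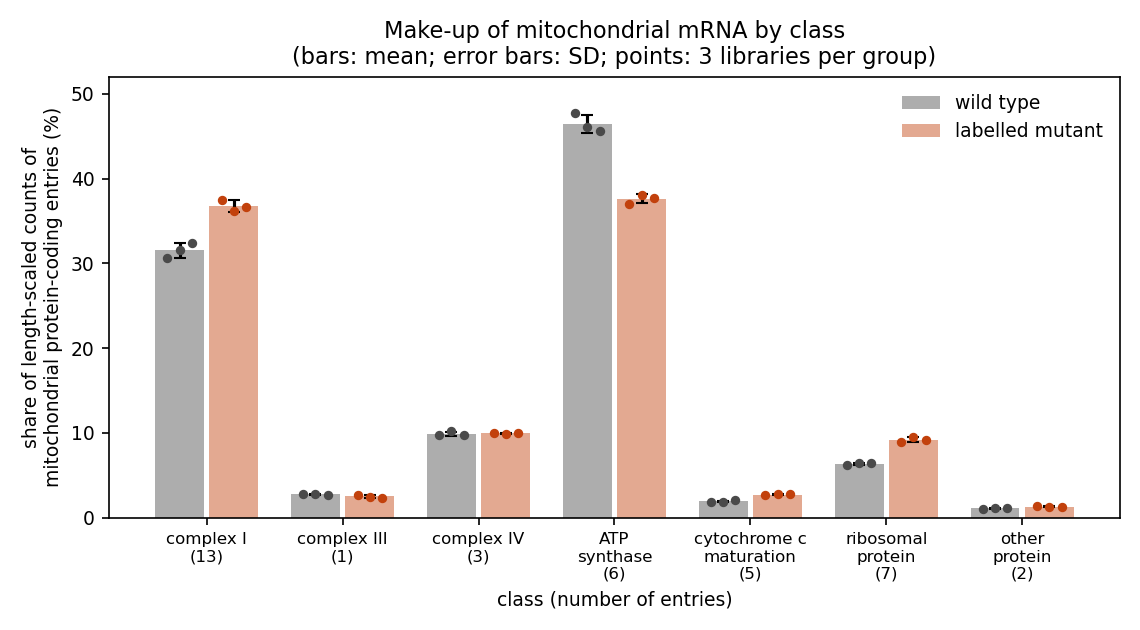
Share of each class in the length-scaled counts of 37 mitochondrial protein-coding entries (y axis, percent), with bars for the group mean, error bars for the SD and a point per library. ATP synthase is lower in the labelled mutant libraries, complex I, cytochrome c maturation and ribosomal proteins are higher, and complex IV overlaps.

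Across the 37 entries, those with a lower level per length in wild type had the larger fold changes, with a Spearman rho of -0.53. The classes share in this, since ATP synthase genes are high and rose little; without them rho was -0.33 over 31 entries. The log2 fold change also had rho of 0.45 with GC content, 0.33 with annotated editing sites per kilobase and 0.12 with exon length. Editing density had rho of -0.32 with the wild-type level. These are descriptions across genes of the same 6 libraries, and genes are not independent replicates. Exceptions ran both ways: rps7 was about as low as ccmFN2 in wild type and rose least of the ribosomal protein genes, whereas nad1 part 3 was higher than cox1 in wild type and rose by 1.79 ± 0.075 (SE, with an edgeR adjusted p of 8.49e-07).

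**Figure D3:**
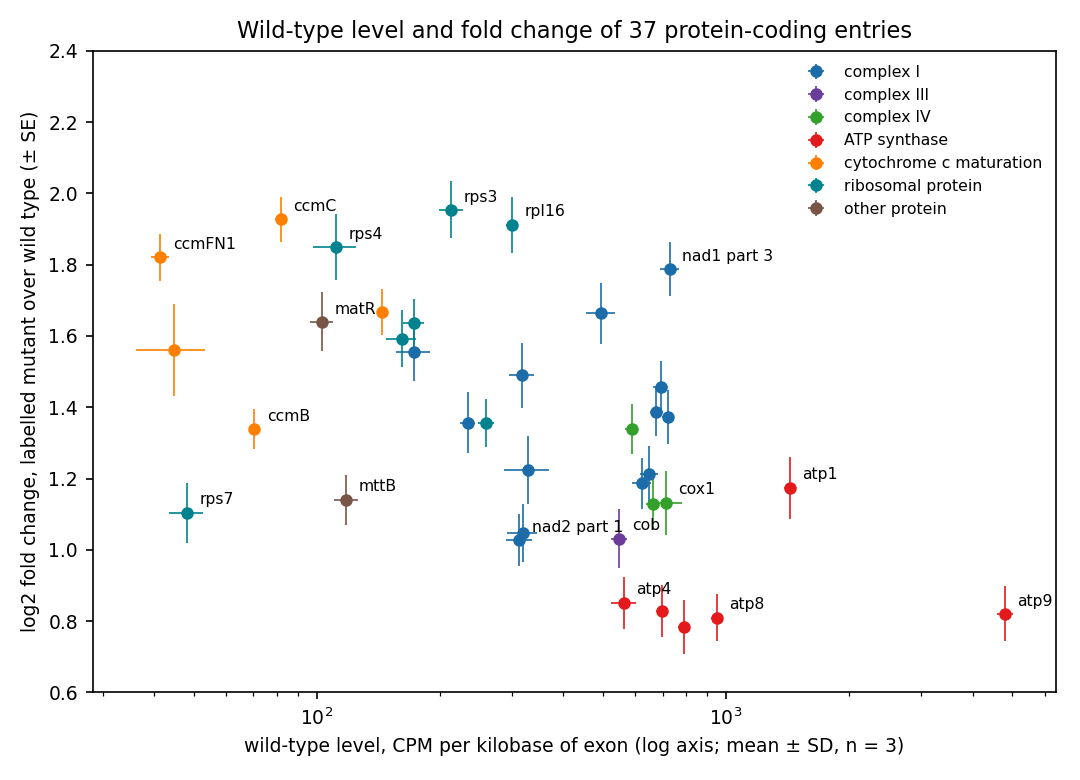
Wild-type level per length (x axis, CPM per kilobase, log axis, mean and SD of 3 libraries) against log2 fold change with its standard error (y axis) for 37 protein-coding entries, coloured by class. ATP synthase entries lie at the lower right and cytochrome c maturation entries at the left, while rps7 lies low and nad1 part 3 high for their levels.

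The tRNA entries rose as a class, with 21 of 22 higher and a median log2 fold change of 1.66. Libraries of this kind capture molecules as short as mature tRNAs poorly, and counts were low, at 1996 to 3161 per library in wild type and 10001 to 12110 in the labelled mutant libraries over all tRNA entries. Whether they come from mature tRNAs or from longer precursors was not tested. Expressed per 10000 counts of mitochondrial protein-coding genes, the tRNA counts were 29.4, 31.5 and 30.8 in wild type and 41.7, 43.4 and 42.2 in the labelled mutant libraries. Every labelled mutant library thus held more tRNA per mRNA count than any wild-type library, and 13 of the tRNA entries had higher relative values, 9 of them in each of the 11 other settings too. The tRNA sums count reads on identical copies at each copy, and the trnS(GCT) copies weigh most in them. Copy 1 had 412, 671 and 582 counts in wild type and 2337, 2534 and 1992 in the labelled mutant libraries. The entry with the most counts was trnS(GCT) copy 2 (position 321858 to 321945, minus strand), with 567, 924 and 788 counts in wild type and 2990, 3267 and 2700 in the labelled mutant libraries. It rose by 1.63 ± 0.083 (SE, with an edgeR adjusted p of 2.03e-06). Values of 2.04 ± 0.10 for trnC(GCA) and 2.00 ± 0.088 for trnN(GTT) were among the higher ones with over 90 counts in each library. The largest value was that of trnfM(CAT) copy 1 (position 149673 to 149743, plus strand), with 2, 2 and 3 counts in wild type and 23, 18 and 15 in the labelled mutant libraries. The log2 fold change of 2.59 ± 0.38 (SE, with an edgeR adjusted p of 5.78e-04) therefore rests on very few wild-type counts. The second trnfM(CAT) copy, at a separate place, had a log2 fold change of 0.92 ± 0.20, and trnM(CAT) (position 102603 to 102675, plus strand) had 0.79 ± 0.13 (SE, with an edgeR adjusted p of 9.56e-04) and was the only tRNA among the stable relatively lower entries (-0.55 ± 0.14). The smallest value, 0.79 ± 0.46 (SE, with an edgeR adjusted p of 0.185), was that of trnW(CCA), with 1, 6 and 8 counts in wild type and 12, 12 and 9 in the labelled mutant libraries. This difference was not detectable at this depth. Both copies of trnK(TTT) are identical over 73 bases and had the same counts in all 6 libraries, as did both copies of trnS(TGA) over 87 bases, so each pair is 1 measurement. The trnS(GCT) copies are also identical, over 88 bases, and the trnY(GTA) copies share 71 identical bases. Their counts differ between copies but can hold the same reads, so these copies are not separate measurements either. The counts of higher and relatively higher entries above include both entries of all these pairs.

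Of the tRNA genes annotated as plastid-like, 5 have a near-identical gene in the plastid genome. In these pairs the mitochondrial entry was higher and the plastid gene lower, except that the mitochondrial trnW(CCA) did not pass. The sequences are shown because a few bases are all that separates the organelles' genes; capitals mark the bases that differ within each pair, and the plastid genes carry their ATCG identifiers. Both genomes are those of RefSeq TAIR10.1. The mitochondrial genes lie at position 124603 to 124676, minus strand (trnH(GTG)), position 43544 to 43615, plus strand (trnN(GTT)), position 274937 to 275010, minus strand (trnD(GTC)), position 180658 to 180744, minus strand (trnS(GGA)) and position 298901 to 298974, plus strand (trnW(CCA)).
trnH(GTG): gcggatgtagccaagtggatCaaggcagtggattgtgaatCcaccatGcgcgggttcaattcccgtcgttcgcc
ATCG00010: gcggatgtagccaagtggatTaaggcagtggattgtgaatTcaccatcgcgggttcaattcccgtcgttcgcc
trnN(GTT): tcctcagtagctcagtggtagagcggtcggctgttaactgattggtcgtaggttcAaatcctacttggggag
ATCG00990: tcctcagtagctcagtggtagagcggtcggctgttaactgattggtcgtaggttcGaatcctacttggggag
trnD(GTC): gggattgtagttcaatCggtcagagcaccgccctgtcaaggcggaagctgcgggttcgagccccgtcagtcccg
ATCG00230: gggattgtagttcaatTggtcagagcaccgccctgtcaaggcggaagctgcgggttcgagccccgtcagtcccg
trnS(GGA): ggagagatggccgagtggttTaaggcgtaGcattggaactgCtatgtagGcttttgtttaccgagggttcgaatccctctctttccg
ATCG00370: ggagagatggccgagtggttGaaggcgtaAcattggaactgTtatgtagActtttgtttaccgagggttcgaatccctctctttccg
trnW(CCA): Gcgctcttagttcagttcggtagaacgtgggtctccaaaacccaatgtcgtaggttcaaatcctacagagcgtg
ATCG00610: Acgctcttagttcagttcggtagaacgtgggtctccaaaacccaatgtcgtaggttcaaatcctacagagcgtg

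The mitochondrial trnN(GTT), which differs from its plastid copy by 1 base, had 96, 124 and 145 counts in wild type and 628, 672 and 567 in the labelled mutant libraries. The plastid copy ATCG00990, which is present again as ATCG01140 with the same counts, had 2604, 3850 and 4196 counts in wild type and 2528, 1862 and 1950 in the labelled mutant libraries. The mitochondrial gene was thus higher by 2.00 ± 0.088 (SE, with an edgeR adjusted p of 1.05e-06) and the plastid gene was lower, at -1.09 ± 0.11 (SE, with an edgeR adjusted p of 5.53e-05). The mitochondrial trnH(GTG) had 5, 7 and 4 counts in wild type and 36, 27 and 34 in the labelled mutant libraries, and ATCG00010 had 238, 343 and 307 counts in wild type and 232, 199 and 157 in the labelled mutant libraries. Again the first rose, by 2.23 ± 0.33 (SE, with an edgeR adjusted p of 5.74e-04), and the second fell, at -0.95 ± 0.12 (SE, with an edgeR adjusted p of 1.90e-04). For trnS(GGA) the values were 2.08 ± 0.25 in the mitochondrion and -1.24 ± 0.10 (SE, with an edgeR adjusted p of 2.23e-05) for the plastid copy. For trnD(GTC), 1 base apart, they were 1.40 ± 0.27 and -1.36 ± 0.18 (SE, with an edgeR adjusted p of 2.75e-04). The plastid copy of trnW(CCA), which differs by its first base only, fell likewise, at -1.20 ± 0.19 (SE, with an edgeR adjusted p of 8.97e-04), while the mitochondrial entry did not pass. Plastid counts exceeded mitochondrial ones in all of these pairs. For trnN(GTT) there were 27.1, 31.05 and 28.9 plastid counts per mitochondrial count in wild type and 4.03, 2.77 and 3.44 in the labelled mutant libraries. This ratio does not depend on how libraries are scaled. A read that lies on identical bases could be counted in both genes, which would make the members of a pair more alike.

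**Figure D4:**
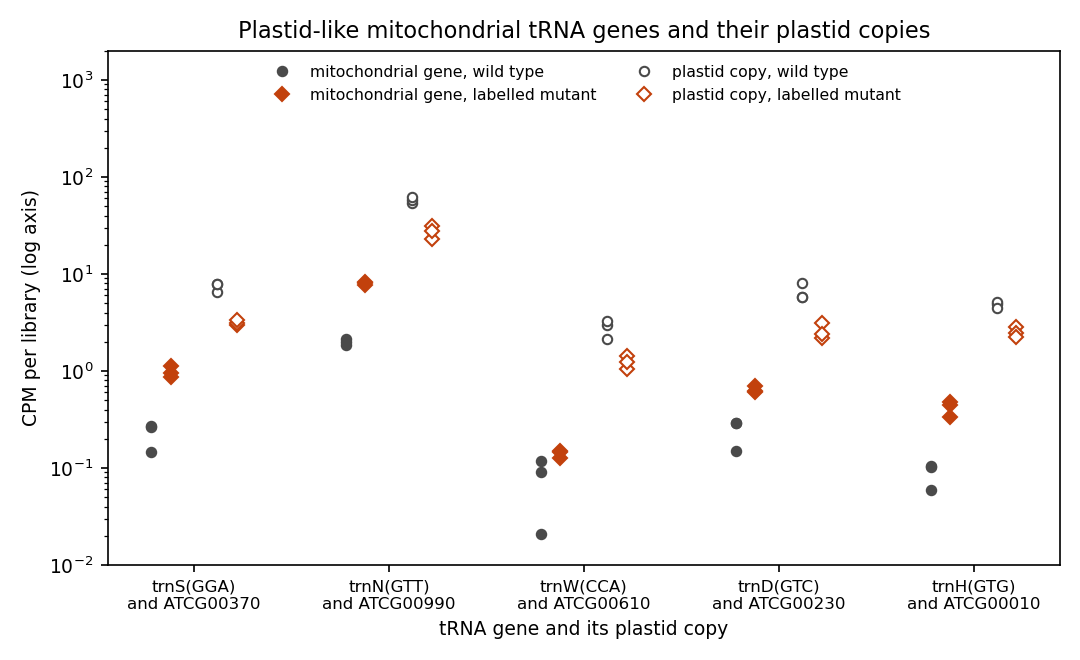
CPM per library (y axis, log axis) of 5 plastid-like mitochondrial tRNA genes (filled) and their plastid copies (open), for 3 wild-type libraries (circles) and 3 labelled mutant libraries (diamonds). In each pair the mitochondrial points of the labelled mutant libraries lie above the wild-type points and the plastid points lie below them.

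The rRNA genes were the exception among the mitochondrial transcripts, in libraries from which ribosomal RNA had been depleted. The 18S gene rrn18 (position 126289 to 128223, minus strand) stood at 267, 346 and 386 CPM per kilobase in wild type and at 361, 282 and 265 in the labelled mutant libraries. The groups overlapped, and the log2 fold change of -0.14 ± 0.16 (SE, with an edgeR adjusted p of 0.482) did not pass; scaled to library totals it was 0.18. The 26S gene rrn26 (position 140797 to 143965, minus strand) stood at 818, 1034 and 1250.2 CPM per kilobase in wild type and at 1777, 1326 and 1320.5 in the labelled mutant libraries. Its groups did not overlap, though wild type replicate 3 lay close to the lower labelled mutant libraries, and the log2 fold change was 0.51 ± 0.18 (SE, with an edgeR adjusted p of 0.0365). This call ended with the replicate block (adjusted p = 0.05605), without wild type replicate 1 (0.37, adjusted p = 0.10) or 2 (0.51, adjusted p = 0.078) and without labelled mutant replicate 1 (0.34, adjusted p = 0.12). The 5S gene rrn5 (position 126001 to 126118, minus strand) had 1, 2 and 1 counts in wild type and 5, 5 and 1 in the labelled mutant libraries. Relative to the mitochondrial mRNAs, rrn18 fell by 1.48 ± 0.15 and rrn26 by 0.83 ± 0.16 on the log2 scale (SE; adjusted p = 6.43e-06 and 8.22e-04). In counts, rRNA per 100 protein-coding counts came to 22.2, 26.1 and 32.8 in wild type and 18.3, 13.8 and 14.04 in the labelled mutant libraries. What remains of an rRNA after depletion need not follow its level in the plant, and the part of depletion here was not tested.

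Neighbouring plant mitochondrial genes can share a precursor, and the balance of counts between neighbours was compared. There were 19 neighbouring pairs of tested entries on 1 strand less than 1500 bases apart, or 18 when the identical trnS(TGA) copies are counted once. Of these 18 pairs, 11 had a ratio of downstream to upstream CPM that did not overlap between the genotypes, 4 with a higher and 7 with a lower ratio in the labelled mutant. Among 6041 neighbouring pairs of nuclear genes chosen the same way the share was 58.9%, with 29.9% higher and 29.0% lower, so the mitochondrial count lay near this background. The largest shift was that of trnS(TGA), which starts 45 bases after the end of atp6 in both of its copies. The log2 ratio of trnS(TGA) copy 1 to atp6 copy 1 was -10.28, -10.06 and -10.09 in wild type and -8.85, -8.74 and -8.93 in the labelled mutant libraries. All labelled mutant libraries were higher, and the tRNA entry rose by 2.07 ± 0.13 (SE, with an edgeR adjusted p of 6.10e-06) next to the protein-coding entry that rose least. This shift depended on where the tRNA was counted. The entry held 35, 59 and 56 counts in wild type and 290, 292 and 224 in the labelled mutant libraries. The nuclear gene AT2G07793 holds the same 87 bases at 100% identity, after an atp6 copy on chromosome 2 that is no counted gene, and had 529, 577 and 564 counts in wild type and 1384, 1364 and 1258 in the labelled mutant libraries. Its counts were higher in every library than those of the mitochondrial entry, and its log2 fold change was 0.89 (edgeR adjusted p = 0.000125), near that of atp6. Reads that overlapped both atp6 and the tRNA were assigned to neither mitochondrial entry; the part of this rule in the shift was not tested. The tRNA sequence follows, from position 50626 to 50712, plus strand, with the anticodon in capitals, because the same 87 bases follow both mitochondrial atp6 copies and make up AT2G07793.

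trnS(TGA): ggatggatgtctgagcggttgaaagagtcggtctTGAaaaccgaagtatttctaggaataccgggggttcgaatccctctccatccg

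In the pair of trnS(GGA) and the cob gene upstream of it, the log2 ratio of downstream to upstream was -12.12, -11.29 and -11.21 in wild type and -10.31, -10.42 and -10.46 in the labelled mutant libraries, higher in every labelled mutant library. In the opposite sense, nad2 part 1 lies 763 bases after rps4, with a log2 ratio of 0.47, 0.41 and 0.61 in wild type and -0.35, -0.31 and -0.32 in the labelled mutant libraries. In counts not divided by length, nad2 part 1 was above rps4 in wild type and below it in the labelled mutant libraries. Per length the order did not change. The mean was 313 CPM per kilobase for nad2 part 1 against 111 for rps4 in wild type. In the labelled mutant libraries it was 637 against 401. Downstream of rpl16, nad9 follows after 840 bases with a log2 ratio of 1.09, 1.15 and 1.18 in wild type and 0.56, 0.29 and 0.40 in the labelled mutant libraries. For atp4, 266 bases after nad4L, the log2 ratio was 0.62, 0.68 and 0.72 in wild type and 0.11, 0.13 and 0.18 in the labelled mutant libraries. For mttB, 163 bases after rpl2, it was -0.76, -0.82 and -0.72 in wild type and -1.15, -1.26 and -1.25 in the labelled mutant libraries. In these last 4 pairs the downstream gene had risen less. Pairs that kept their balance included trnK(TTT) copy 1 and rps3, rps3 and rpl16, and trnG(GCC) and ccmFC, whose log2 fold changes differed by 0.12, 0.04 and 0.08 and whose ratios overlapped between the groups. An unchanged ratio does not show that the genes share a transcript.

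**Figure D5:**
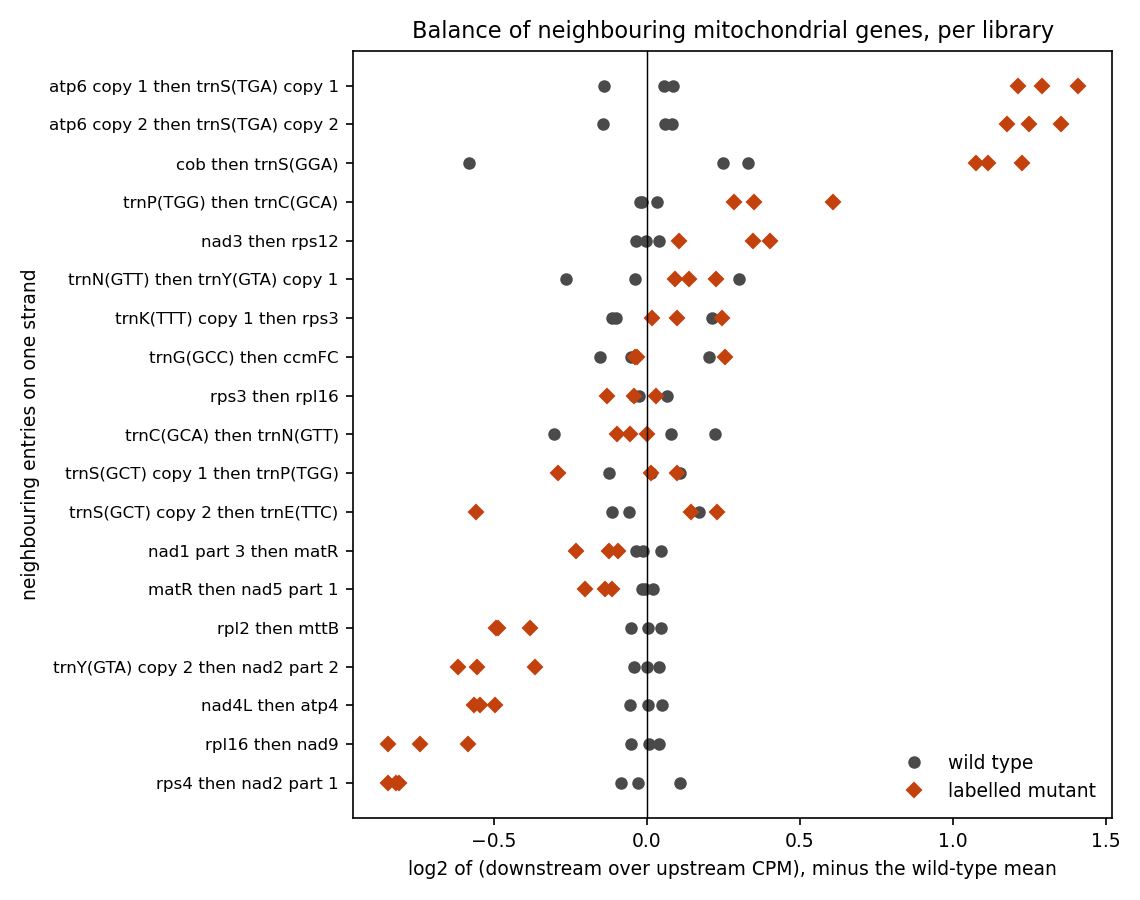
Log2 ratio of downstream to upstream CPM in each library, minus the wild-type mean (x axis), for 19 pairs of neighbouring mitochondrial entries (y axis); circles are wild-type and diamonds labelled mutant libraries. The pairs of atp6 and trnS(TGA) lie farthest to the right and the pair of rps4 and nad2 part 1 farthest to the left.

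Most mitochondrial genes have copies in nuclear DNA, chiefly in the large insertion on chromosome 2, and reads with several alignments were counted at each of them. By sequence comparison 55 of the 63 entries had a nuclear stretch of near-identical sequence and 45 were copied over their whole exon length. Counts at a mitochondrial entry can therefore hold reads from such a copy, and the reverse. There were 31 nuclear genes holding at least 90% of a mitochondrial entry in an exon, and 30 of them were called higher, as their mitochondrial partners were. In 14 of the 36 pairs formed by these genes the counts were identical in all 6 libraries, as for nad3 and AT2G07751. No near-identical copy in the 3 genomes was found for 4 tested entries. Of these, ccmB, atp4 and nad5 part 3 rose by 1.34, 0.85 and 1.37 on the log2 scale. The remaining entry, nad5 part 2, has 22 bases and rose by 1.80. It is shorter than the 50 bases required of a copy, so none could have been found for it.

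Nuclear genes for the machinery of mitochondrial RNA were examined for comparison, as a list of 15. Of these, 2 were higher and 5 lower, beside 26.3% and 26.0% of all tested genes, and the median log2 fold change was 0.03 against 0.01. The RNA polymerase RPOTmp (AT5G15700), which serves both organelles, was higher by 0.29 ± 0.055 (SE, with an edgeR adjusted p of 0.00251), as was the splicing factor nMAT2 (AT5G46920) by 0.30 ± 0.067 (SE, with an edgeR adjusted p of 0.00562). The mitochondrial polymerase RPOTm (AT1G68990) had a value of 0.03 ± 0.059 (SE, with an edgeR adjusted p of 0.693). Lower were PRORP1 (AT2G32230) and TRZ4 (AT3G16260), which trim tRNA precursors, at -0.38 ± 0.099 (SE, with an edgeR adjusted p of 0.0114) and -0.40 ± 0.086 (SE, with an edgeR adjusted p of 0.00456). The exonuclease gene AT5G02250 (mtRNase II) was lower, at -0.32 ± 0.058 (SE, with an edgeR adjusted p of 0.00196), and so was the splicing factor gene nMAT1 (AT1G30010), at -0.44 ± 0.09 (SE, with an edgeR adjusted p of 0.00323). The RNA helicase SUV3 (AT4G14790) completed the lower ones with -0.28 ± 0.081 (SE, with an edgeR adjusted p of 0.0172). The largest change in the list was thus -0.44. The part of these genes in the rise of the mitochondrial transcripts was not tested.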

How the data were processed

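The authors deposited raw counts of reads for each gene, with a table for each library; per the file headers these came from featureCounts 2.0.0. Its options show counting over exons on the opposite strand, a full count at every location of a multiply aligned read, and no count for reads shared by overlapping genes of a strand. STAR and TAIR10 are named in the submitters' processing notes; the STAR version is not given in the sources used here. Starts and ends of 60 mitochondrial entries matched the RefSeq TAIR10.1 mitochondrial genome (367808 bases), and 3 matched at 1 end, so names, editing sites and sequences were taken from it.

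Tests used edgeR 4.0.16 under R 4.3.3 (filterByExpr, TMM scaling, quasi-likelihood fit, two-sided, Benjamini-Hochberg over 21805 genes, threshold 0.05), and again with each library scaled to the median ratio of mitochondrial protein-coding genes. DESeq2 1.42.0 was an alternative. The fit was checked on simulated counts. CPM is the count per 1000000 of the TMM-scaled total. Near-identical copies have at least 95% identity over at least 50 bases (BLAST+ 2.17.0). Groups and replicate numbers came from genotype labels and titles; the design text speaks of 2 biological replicates. Members, classes and lists were chosen with earlier results of these data known. Values per library were given for rRNA genes, for entries that did not pass, for the largest and smallest fold change of each class and for the 3 highest levels per length; others were chosen after their values were seen.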

Additional observations from a re-analysis of the deposited data

How the results depend on the processing

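The count of 60 mitochondrial genes that differed between the genotypes stayed between 59 and 60, all of them higher, with the other settings (DESeq2, no filter on low counts, RLE, nuclear TMM and total-count scaling), and leaving out each library in turn gave 59 to 60. With a Bonferroni adjustment, chosen after seeing the data, it was 48. Scaling by library totals moved the median of all genes by 0.32 on the log2 scale, from 0.01 with TMM to 0.33. The count of 42 relative calls was 36 to 41 without 1 library; the sum-based scalings gave 42, as 31 higher and 11 lower in place of 26 and 16, of which 37 were among the 42. With a Bonferroni adjustment it was 0.

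No paired design was stated. Same-numbered libraries of the groups had correlations of 0.23, 0.054 and 0.0073 between their deviations, and differently numbered ones from -0.16 to 0.13. With so few libraries these values do not settle whether the numbers pair them. With a replicate block 59 genes differed between the genotypes and 39 differed relative to the protein-coding genes.

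Signs changed only for values that did not pass on either side; the cause was not tested. For rrn18 the log2 fold change was 0.18 by library totals. Relative values turned for ccmB (0.038 without wild type replicate 1, 0.0023 and 0.011 without labelled mutant replicates 1 and 2, 0.10 under both sum-based scalings; range without 1 library from -0.031) and for cox3 (0.017, 0.0011 and 0.00788 without wild type replicates 1 and 2 and labelled mutant replicate 1, 0.10 under both sums; range from -0.028). They also turned for trnI(CAT) (0.0045 with the block, 0.028, 0.015 and 0.033 without wild type replicates 2 and 3 and labelled mutant replicate 1, 0.10 under both sums; range from -0.044). Without 1 library, nad3 ranged from -0.055 to 0.078 (-0.0432 without wild type replicate 2), trnD(GTC) from -0.23 to 0.24 and nad5 part 3 from -0.0052 to 0.057. trnW(CCA) had too few counts to be tested without labelled mutant replicate 1. Counting each entry once per alternative setting, with Bonferroni included, a call was lost 16 times for the genotype and 90 times for the relative results. Apart from Bonferroni, rrn26 was the only entry to lose its genotype call, and 10 entries lost a relative call. At 1 to 8 counts per wild-type library, the depth does not resolve a size for trnH(GTG) and trnfM(CAT) copy 1, nor a direction for trnW(CCA).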
